A study of Mus musculus with 9 samples.

Results

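Neuronal splicing factors of the RBFOX family (Rbfox1, Rbfox2 and Rbfox3) and of the NOVA, ELAVL, PTBP and CELF families (Nova1, Elavl2, Elavl3, Elavl4, Ptbp2 and Celf4) were followed in the substantia nigra of mice given methylphenidate (MPH), a stimulant that blocks the dopamine and noradrenaline transporters. The members were all probe sets that the platform annotation assigns to 1 of these 9 gene symbols. They came to 26 of 45037 probe sets and 8 of 17097 named genes, with 3 probe sets for Rbfox1, 4 for Rbfox2, 3 for Rbfox3, 2 for Nova1, 5 for Elavl2 and 3 each for Elavl3, Elavl4 and Celf4. Ptbp2 was not analysed here. Rbfox1 was chosen by its measured values, which were higher in the MPH arrays than in saline, so its differences from saline are given as a description and without a test.

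Swiss Webster mice, an outbred stock with no engineered allele, were injected with saline or with MPH, at 1 mg/kg in one group and 10 mg/kg in the other, once a day in a weekly school schedule from a juvenile age to young adulthood, and were then left without drug for a week. Their substantia nigra was dissected, and its RNA was read on Affymetrix microarrays, where several short probes against the same transcript are summarized as a probe set. There were 3 arrays per group and 9 in all, each labelled with the treatment of a mouse. The sex of the mice is not given in the sources used here, and nothing states whether an array holds 1 animal or a pool, so the p-values measure the spread between these arrays, which may be technical. Values are on the log2 scale, where a difference of 1 is a change of 2-fold, and each value belongs to its own probe set and cannot be set against that of another probe set.

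The names MPH1 and MPH10 stand for the deposited labels of 1 mg/kg and 10 mg/kg. They name labels only, because published gene lists of these arrays assign the doses the other way round. Of the entries listed for 1 mg/kg, 76 could be matched by sequence identifier, and all 76 equalled the difference of the MPH10 arrays from saline within 5e-04. Of those listed for 10 mg/kg, 36 could be matched, and all 36 equalled the difference of the MPH1 arrays. The array values do not show which assignment is right.

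These proteins bind the RNA of newly made transcripts and decide which exons are kept, which gives neurons protein isoforms that other cells lack. RBFOX proteins recognise the element UGCAUG, promote an exon when they bind downstream of it and often repress it when they bind upstream. They are expressed in neurons, with Rbfox1 and Rbfox2 also in muscle. Rbfox3 is the antigen of the NeuN antibody, a routine label of neurons that stains many dopamine neurons of the substantia nigra weakly. Nova1 binds YCAY elements and is known from the brainstem and spinal cord, the ELAVL proteins (the Hu antigens) bind U-rich RNA and also stabilise messages, and Celf4 regulates splicing and the stability of synaptic messages in excitatory neurons.

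Rbfox1 is annotated with 2 separate start sites in the sequence table of RefSeq (GRCm38.p6), and the bases before them are shown because the arrays do not tell which start the measured transcripts came from. The positions of the probe sets are not given in the sources used here. Each line holds the 250 bases before a start on the plus strand, 5′ to 3′, at chr16:5884543-5884792 and chr16:7069585-7069834, with CG dinucleotides in capitals. No value of the arrays bears on these windows directly.
Rbfox1 upstream start: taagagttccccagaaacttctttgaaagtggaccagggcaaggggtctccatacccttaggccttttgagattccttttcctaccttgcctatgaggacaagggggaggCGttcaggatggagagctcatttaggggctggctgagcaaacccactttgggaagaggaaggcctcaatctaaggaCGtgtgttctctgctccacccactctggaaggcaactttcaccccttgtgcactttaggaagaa
Rbfox1 downstream start: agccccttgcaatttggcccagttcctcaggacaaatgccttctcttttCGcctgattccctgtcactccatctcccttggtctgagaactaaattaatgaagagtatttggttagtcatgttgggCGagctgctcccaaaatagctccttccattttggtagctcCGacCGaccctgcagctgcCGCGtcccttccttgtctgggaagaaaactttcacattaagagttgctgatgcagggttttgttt
The upstream window held 2 CG dinucleotides and 51.2% G or C, and 18.8% of 32851 such windows of the table held fewer. The downstream window held 6 CG dinucleotides and 48.4% G or C, and 49.6% of all windows held fewer.

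Array medians were 4.49 to 4.53, and 20 controls without a matching transcript had values of 2.74 to 3.58 with a median of 3.00, so values up to about 3.58 cannot be told from background. Defining genes of dopamine neurons were present. Th, the enzyme that limits dopamine synthesis, had values of 10.31 to 11.18, and the dopamine transporter Slc6a3 had values of 11.63 to 12.09, while the identity factor Pitx3 was low at 3.65 to 4.30 and Lmx1b lay in the range of the controls. MPH10 array 1 stood apart, with a mean of 6.74 over 9 measured genes of cortex or hippocampus against 5.86 to 6.22 in the other arrays. Icam5 (7.19), Itpka (6.03), Neurod6 (5.48) and Camk2a (10.3) were highest there, whereas Cux2 was lowest (8.07). Lamp5, Prox1 and Wfs1 lay within the range of the other arrays, and Tbr1 was at background. Arrays also differed in genes of tissue next to the nigra. The 5 thalamus genes had a mean of 7.46 in saline array 2 and 7.68 in array 1 of the MPH10 group, against 8.21 to 8.95 in the other 7 arrays. The genes of this list did not all go the same way. Tcf7l2, Rora and Prkcd were lowest in both of these arrays, whereas Calb2 was highest in them, at 10.54 and 9.94. Lhx9 was lowest in saline array 2 (3.67), but MPH10 array 1 (4.63) read close to MPH10 array 3 (4.62). In bulk RNA such as this, fewer cells of a type and less RNA per cell cannot be told apart.

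Rbfox1, the neuronal splicing factor also called A2bp1, had higher mean values in both MPH groups by all 3 of its probe sets. In its brightest probe set, 1418314_PM_a_at, the saline arrays read 9.95, 9.86 and 10.00, the MPH1 arrays 10.68, 10.67 and 10.54, and the MPH10 arrays 10.20, 10.41 and 10.38. The 3 groups did not overlap, with saline lowest and the MPH1 arrays highest. The differences from saline were 0.69 and 0.40 (standard error 0.09, n = 3 arrays per group), which is 1.62-fold and 1.32-fold.

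The other probe sets of Rbfox1 pointed the same way with a wider spread. In 1455358_PM_at the saline arrays read 9.70, 9.29 and 10.07, the MPH1 arrays 10.33, 10.41 and 10.22, and the MPH10 arrays 10.08, 10.32 and 9.95. The MPH1 arrays lay above all saline arrays, whereas the MPH10 arrays overlapped them through saline array 3. The differences were 0.63 and 0.43 (standard error 0.19). In 1438217_PM_at the saline arrays read 7.28, 6.78 and 7.42, the MPH1 arrays 7.43, 7.61 and 7.58, and the MPH10 arrays 7.47, 7.67 and 7.17. Saline array 2 was again the lowest of all 9, and the MPH10 arrays overlapped saline. The differences were 0.38 and 0.28 (standard error 0.19). Over the 9 arrays the brightest probe set had a Pearson correlation of 0.85 with 1455358_PM_at and 0.65 with 1438217_PM_at, and these dimmer probe sets had 0.92 with each other, across arrays of 3 groups that contribute to these values. In all probe sets, 10.7% and 10.3% had MPH1 arrays and MPH10 arrays that lay wholly above saline, and nothing is read from the Rbfox1 probe sets against these shares.

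**Figure D1:**
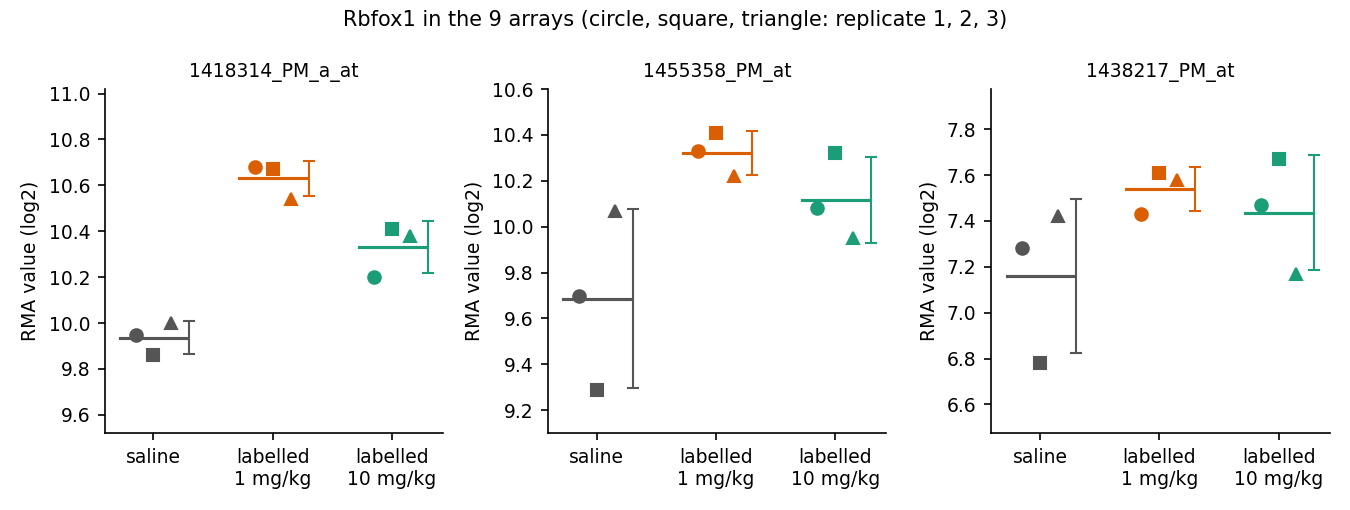
RMA values (log2, vertical axis) of the 3 probe sets of Rbfox1 in each array, by group; points are arrays, with circles, squares and triangles for replicates 1, 2 and 3, long bars are group means and capped bars are SDs, and each panel spans the same 1.5 log2 units. The groups are apart in 1418314_PM_a_at, and saline replicate 2 is the lowest array in every panel.

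The size of the difference in the 2 dimmer probe sets depended on single arrays. Without saline array 2 the differences in 1455358_PM_at were 0.36 and 0.16, those in 1438217_PM_at were 0.12 and 0.01, and those in 1418314_PM_a_at were 0.63 and 0.33. Saline array 2 had the lowest mean of the thalamus genes, although Calb2 of that list was highest there. MPH10 array 1, with the next lowest mean, lay between MPH10 arrays 3 and 2 in both dimmer Rbfox1 probe sets (10.08 and 7.47). In the brightest it was the lowest MPH10 array (10.20). Whether tissue at the edge of the dissection has a part in the Rbfox1 values was not tested. Without saline array 3, the highest of the saline arrays in both dimmer probe sets, the differences in 1455358_PM_at were 0.89 and 0.69 and those in 1438217_PM_at 0.57 and 0.46. The MPH10 differences also moved without MPH10 array 2, to 0.26 in 1455358_PM_at and 0.08 in 1438217_PM_at, and without MPH10 array 3, to 0.48 in 1438217_PM_at. No array that was left out turned the sign of a difference from saline in any of the 3 probe sets.

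Between the MPH groups themselves the MPH10 arrays were lower. In 1418314_PM_a_at they lay below all MPH1 arrays (difference -0.30, 95% confidence interval -0.51 to -0.09), and the difference did not pass limma's test over all probe sets (adjusted p = 0.774, unadjusted p = 0.0118). Rbfox1 was chosen by values that include these MPH arrays, so its p-values here are not independent of that choice. In 1455358_PM_at and 1438217_PM_at the values were -0.20 and -0.11 with overlapping groups (adjusted p = 0.868 and 0.939 from limma). The order saline, MPH10, MPH1 held for the group means of all 3 probe sets, and MPH10 and MPH1 overlapped in the 2 dimmer ones. In 1438217_PM_at the sign turned without MPH10 array 3, to 0.10.

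Other readouts were followed beside Rbfox1 in these arrays, and only some of them differed between the groups. Summed levels add the log2 values of the brightest probe set of each gene, so they are not proportional to amounts of RNA. The 8 measured general neuron genes had summed levels of 91.0 to 92.2 in saline, 90.8 to 91.1 in the MPH1 arrays and 90.9 to 91.6 in the MPH10 arrays, with medians of -0.05 and -0.01 against saline. The 12 dopamine neuron genes had summed levels of 100.0 to 102.5 in saline and 94.8 to 96.0 in the 6 MPH arrays, lower in every MPH array. Their medians against saline were -0.48 in the MPH1 arrays and -0.45 in the MPH10 arrays. The 5 thalamus genes had summed levels of 37.3 to 43.2 in saline, 43.4 to 44.8 in the MPH1 arrays and 38.4 to 43.5 in the MPH10 arrays. The 2 measured genes of raphe serotonin neurons had mean levels of 4.16 to 6.95 in saline, 3.18 to 3.86 in the MPH1 arrays and 3.44 to 4.76 in the MPH10 arrays, with medians of -2.30 and -1.89 against saline, the furthest from 0 of the marker lists. Tph2, the enzyme of serotonin synthesis in the brain, read 4.24, 7.47 and 6.96 in saline, 3.88, 3.20 and 3.47 in the MPH1 arrays and 5.21, 3.61 and 3.32 in the MPH10 arrays, so that saline arrays 2 and 3 stood above the rest. The 5 GABA neuron genes had summed levels of 44.8 to 46.4, 45.8 to 47.3 and 44.5 to 45.9, and the 3 skeletal muscle genes of 11.8 to 12.2, 11.9 to 12.2 and 11.8 to 11.9, with the defining muscle genes Ckm and Myh4 at background. For Actb, whose readings from both ends of the message track RNA quality, the 3' and 5' readings differed by 0.882 to 0.934 in saline and by 1.027 to 1.187 in the MPH arrays, so RNA quality as read from Actb and MPH cannot be told apart, while those of Gapdh overlapped. The part of these cell types in the Rbfox1 values was not tested.

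**Figure D2:**
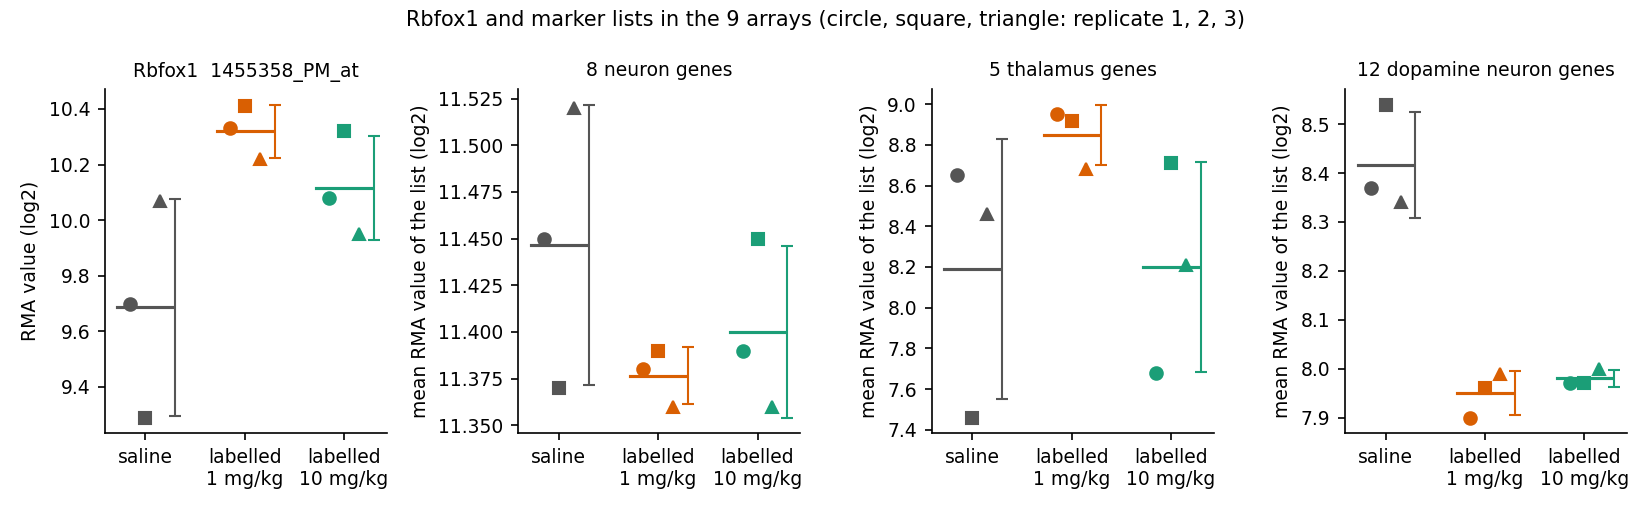
RMA value (log2) of the Rbfox1 probe set 1455358_PM_at and the mean RMA value of 8 neuron, 5 thalamus and 12 dopamine neuron genes in each array, by group; points are arrays, with circles, squares and triangles for replicates 1, 2 and 3, long bars are group means and capped bars are SDs, and the vertical ranges differ between panels. Saline replicate 2 is lowest for Rbfox1 and for the thalamus genes. MPH10 replicate 1, next lowest for the thalamus genes, lies between MPH10 replicates 3 and 2 for Rbfox1. All MPH arrays are below saline for the dopamine neuron genes.

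None of the 7 other measured members passed limma's test against saline. Of their 23 probe sets, 0 passed an adjusted p of 0.05 in either comparison, where 0% of all probe sets did, and 0 passed without the replicate block, where 0.12% and 0.255% of all probe sets did. At an unadjusted p of 0.05 0 of 23 passed in both comparisons, where 10.3% of all probe sets passed in the MPH1 arrays and 9.59% in the MPH10 arrays. Without the replicate block 0 and 1 of 23 did, where 18.5% and 17.7% of all probe sets did. The 23 differences had medians of 0.07 and 0.03 and ranged from -0.10 to 0.26 and from -0.14 to 0.39 (standard errors 0.08 to 0.25), beside medians of -0.005 and -0.008 over all probe sets. Groups that did not overlap were seen in 1 of 23 probe sets in each comparison, where 23.1% and 23.4% of all probe sets had them (10.7% higher and 12.4% lower, and 10.3% higher and 13.1% lower). Whether Rbfox1 differed more than its relatives was not tested.

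**Figure D3:**
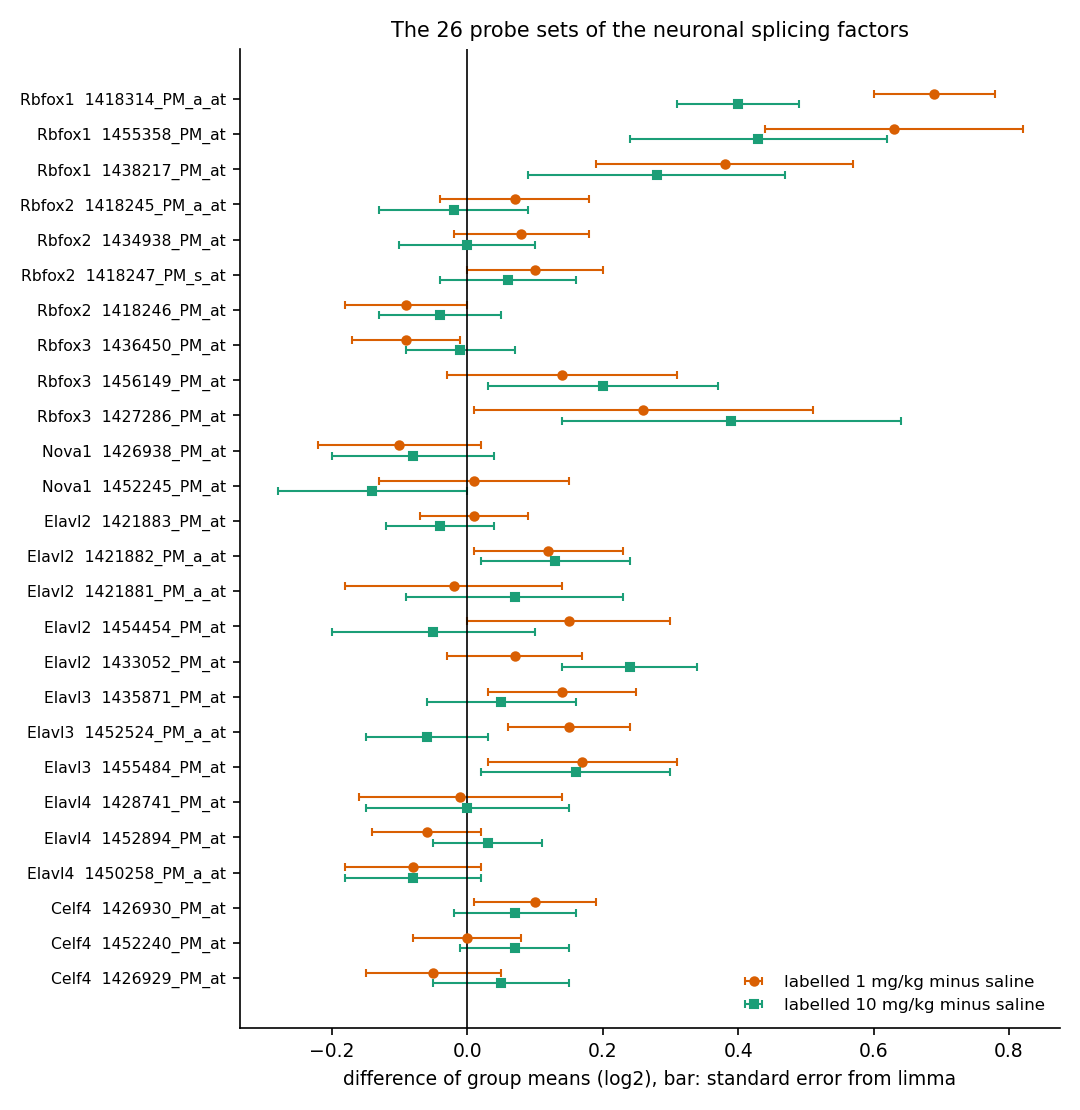
Difference of group means from saline (log2, horizontal axis) for each of the 26 probe sets, with circles for the MPH1 arrays and squares for the MPH10 arrays; bars are standard errors from limma with 3 arrays per group. The 3 Rbfox1 probe sets lie at 0.28 to 0.69 and the other 23 between -0.14 and 0.39.

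Within the RBFOX family, Rbfox2, which splices much the same exons and is also made outside neurons, was near its saline level. Its brightest probe set, 1418245_PM_a_at, read 8.26, 8.09 and 7.96 in saline, 8.03, 8.31 and 8.19 in the MPH1 arrays and 8.22, 8.16 and 7.89 in the MPH10 arrays. All 3 groups overlapped. The differences were 0.07 (95% confidence interval -0.19 to 0.33, adjusted p = 0.849 from limma) and -0.02 (-0.27 to 0.24, adjusted p = 0.971). Its 3 dimmer probe sets had group means of 3.44 to 4.42, with 1418246_PM_at at background, and differences between -0.09 and 0.10.

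Rbfox3, the NeuN antigen, had values in its brightest probe set 1436450_PM_at of 10.82, 10.80 and 10.83 in saline, 10.76, 10.63 and 10.78 in the MPH1 arrays and 10.92, 10.82 and 10.68 in the MPH10 arrays. The MPH1 arrays lay just below all saline arrays (difference -0.09, 95% confidence interval -0.29 to 0.10, adjusted p = 0.722 from limma), and the MPH10 arrays lay on both sides (-0.01, -0.20 to 0.18, adjusted p = 0.972). The dimmer probe sets had positive values, 0.14 and 0.20 in 1456149_PM_at (standard error 0.17) and 0.26 and 0.39 in 1427286_PM_at (standard error 0.25). In these, as in the dimmer probe sets of Rbfox1, saline array 2 was the lowest of the 9, at 7.78 and 5.90. The probe sets of Rbfox3 differed in sign, and none passed the test.

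Nova1 read 9.65, 9.43 and 9.67 in saline, 9.59, 9.47 and 9.41 in the MPH1 arrays and 9.28, 9.65 and 9.59 in the MPH10 arrays in 1426938_PM_at. The groups overlapped, with array 1 of the MPH10 group lowest, and the differences were -0.10 (-0.38 to 0.19) and -0.08 (-0.37 to 0.21, adjusted p = 0.819 and 0.862 from limma). Its second probe set was at background.

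The ELAVL genes encode the neuronal Hu proteins, which appear as cells become neurons. Elavl2 in 1421883_PM_at read 11.16, 11.33 and 11.31 in saline, 11.26, 11.30 and 11.27 in the MPH1 arrays and 11.30, 11.15 and 11.22 in the MPH10 arrays, a difference of 0.01 (-0.18 to 0.20) and -0.04 (-0.23 to 0.14, adjusted p = 0.982 and 0.883 from limma). Its groups overlapped in every probe set but the dimmest, 1433052_PM_at, whose group means of 3.59 to 3.82 reach the background, and which was 0.24 higher in the MPH10 arrays (adjusted p = 0.526 from limma). Elavl3 had positive values against saline in 5 of its 6 comparisons. Its brightest probe set, 1435871_PM_at, read 9.77, 9.48 and 9.82 in saline, 9.72, 9.96 and 9.81 in the MPH1 arrays and 9.65, 9.82 and 9.74 in the MPH10 arrays, a difference of 0.14 (-0.12 to 0.41) and 0.05 (-0.22 to 0.32, adjusted p = 0.692 and 0.913 from limma). Saline array 2 was again lowest. Elavl4 in 1428741_PM_at read 9.59, 9.92 and 9.88, then 9.72, 9.95 and 9.69, then 10.04, 9.60 and 9.73 in the groups in the same order, with differences of -0.01 and 0.00 (adjusted p = 0.986 and 0.996 from limma) and full overlap.

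Celf4, which tunes excitatory synapses through its target messages, read 11.33, 11.46 and 11.41 in saline, 11.39, 11.55 and 11.56 in the MPH1 arrays and 11.59, 11.42 and 11.41 in the MPH10 arrays in 1426930_PM_at. The differences were 0.10 (-0.11 to 0.31) and 0.07 (-0.14 to 0.28, adjusted p = 0.741 and 0.815 from limma), and the groups overlapped. Array 1 of the MPH10 group was the highest of the 9 in all 3 probe sets of Celf4. It also had the high mean of the cortex or hippocampus genes, a list whose genes did not all go the same way. The part of that tissue was not tested.

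**Figure D4:**
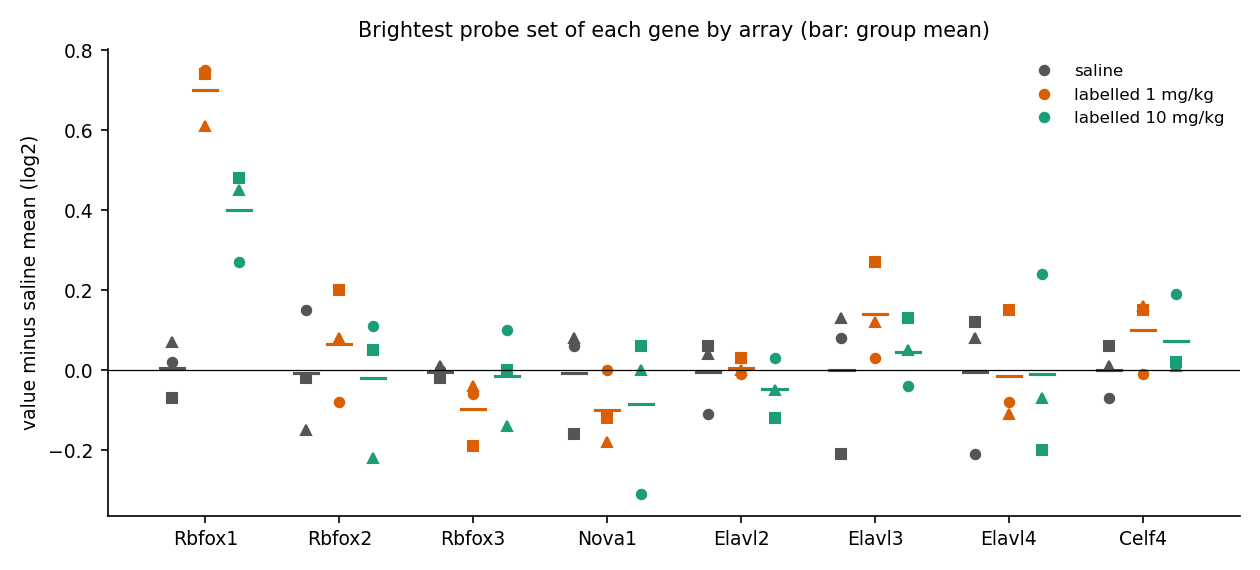
Value of the brightest probe set of each of the 8 measured genes minus the mean of its saline arrays (log2, vertical axis) in each array; points are arrays, with circles, squares and triangles for replicates 1, 2 and 3, with 1 color per group and a short bar at each mean. Arrays of the 3 groups are mixed for the other 7 genes, apart from Rbfox3 in the MPH1 arrays.

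Between the MPH groups, 0 of the 26 member probe sets passed limma's adjusted test, with or without the replicate block, where 0% of all probe sets passed by either fit. At an unadjusted p of 0.05, 2 were lower in the MPH10 arrays and 0 were higher, beside 3.39% and 3% of all probe sets (6.39% in either direction, and 12.9% without the replicate block). They were Rbfox1 1418314_PM_a_at, of the gene chosen by its values in the MPH arrays, and Elavl3 1452524_PM_a_at. The latter read 8.92, 8.86 and 9.03 in saline, 9.02, 9.21 and 9.05 in the MPH1 arrays and 8.91, 8.92 and 8.80 in the MPH10 arrays, and the difference of the MPH groups was -0.21 (-0.42 to -0.01, adjusted p = 0.774 and unadjusted p = 0.0439 from limma). The other 2 probe sets of Elavl3 had overlapping MPH groups. Groups were apart in 2 probe sets with lower MPH10 arrays, those just named, and in 2 with higher MPH10 arrays, Elavl2 1433052_PM_at and Elavl4 1452894_PM_at, beside 9.44% and 8.72% (18.2% together) of all probe sets.

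Other splicing regulators of neurons or single tissues were followed as a list of 26 genes, of which 21 were measured by 67 probe sets. The list was made with earlier results of these data known. By adjusted p, 0 of 67 passed in either comparison with or without the replicate block. Of all probe sets, 0% passed with the block, and 0.12% (MPH1) and 0.255% (MPH10) without it. At an unadjusted p of 0.05, 5 probe sets were higher and 3 lower in the MPH1 arrays, beside 4.53% higher and 5.77% lower in all probe sets, and 7 were higher and 1 lower in the MPH10 arrays, beside 4.08% and 5.51%. Taking the brightest probe set of each gene, the medians were 0.00 and 0.07, with 11 and 14 of 21 genes above 0.

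The smallest p of this list belonged to Mbnl3, a member of the muscleblind-like family of splicing factors. In 1422836_PM_at it read 4.64, 5.28 and 5.04 in saline, 3.87, 3.84 and 3.32 in the MPH1 arrays and 4.87, 4.09 and 4.71 in the MPH10 arrays. The MPH1 arrays lay below all saline arrays with a difference of -1.31, while the MPH10 arrays overlapped saline with a difference of -0.43 (standard error 0.26, adjusted p = 0.378 and 0.616 by limma, and 0.0657 and 0.373 without the replicate block). Its other 2 probe sets had differences of -1.19 and -0.70 in the MPH1 arrays, again without overlap, and of -0.60 and -0.36 in the MPH10 arrays, with overlap (adjusted p = 0.417 to 0.624).

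Srrm3, an activator of the very short exons called microexons, had higher values in both MPH groups in 1442421_PM_at. It read 6.08, 6.05 and 6.29 in saline, 6.42, 6.61 and 6.63 in the MPH1 arrays and 6.70, 6.55 and 6.54 in the MPH10 arrays. No MPH array overlapped saline, and the differences of 0.41 and 0.45 (standard error 0.10) did not pass (adjusted p = 0.378 and 0.387 from limma, and 0.08 and 0.0712 without the replicate block). Its other probe sets had differences of 0.18 and -0.05 in the MPH1 arrays and of 0.36 and 0.26 in the MPH10 arrays.

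Tia1, which binds U-rich introns and forms stress granules, gave opposite readings. In 1431708_PM_a_at it read 6.90, 5.95 and 7.64 in saline, 6.66, 4.95 and 5.07 in the MPH1 arrays and 4.0, 5.37 and 4.09 in the MPH10 arrays. The MPH1 arrays overlapped saline and the MPH10 arrays lay below it, with differences of -1.27 and -2.34 (standard error 0.61, adjusted p = 0.521 and 0.424 by limma). In 1437934_PM_at it was higher by 0.22 and 0.42 without overlap (standard error 0.09, adjusted p = 0.472 and 0.387 by limma), and its brightest probe set was higher by 0.20 and 0.16. Genes of this list with probe sets of both signs in the MPH1 arrays were Celf1, Celf2, Elavl1, Khdrbs1, Mbnl1, Ptbp1, Qk, Rbm24, Snrpn, Srrm3, Srrm4 and Tia1, 12 of the 14 with several probe sets, and 8 of the 14 in the MPH10 arrays (Celf1, Celf2, Elavl1, Khdrbs1, Ptbp1, Qk, Rbm24 and Tia1).

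**Figure D5:**
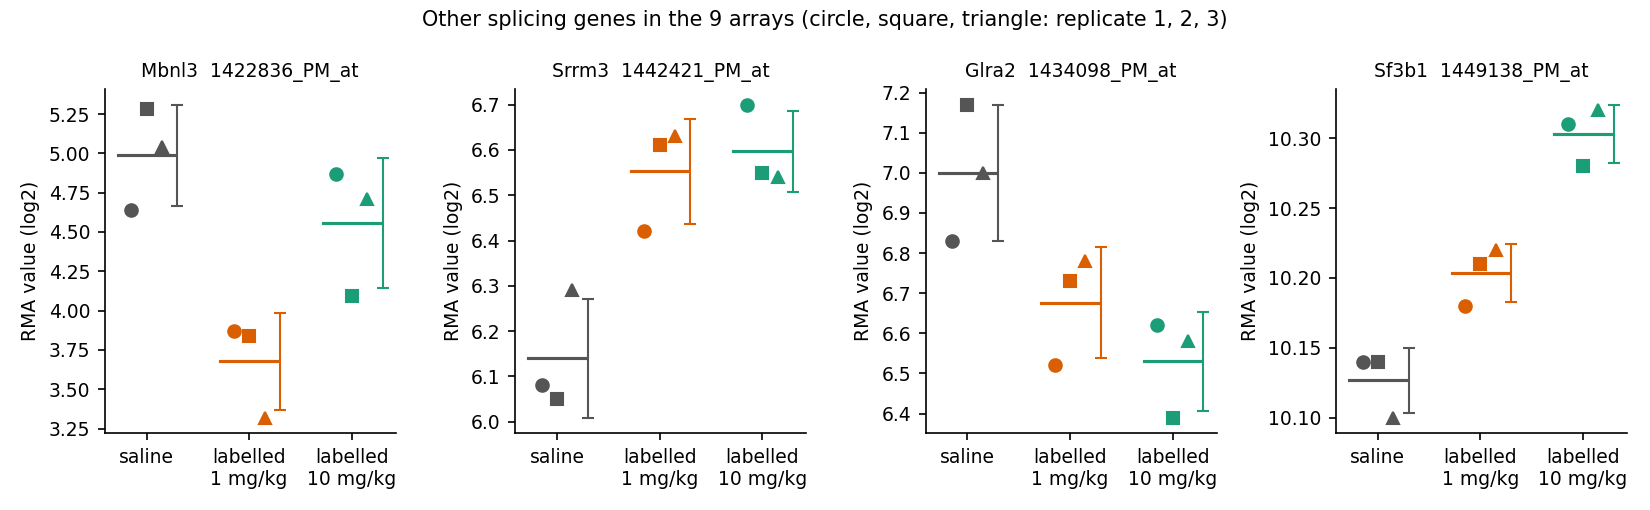
RMA values (log2, vertical axis) of Mbnl3, Srrm3, Glra2 and Sf3b1 in each array, by group; points are arrays, with circles, squares and triangles for replicates 1, 2 and 3, long bars are group means and capped bars are SDs, and the vertical ranges differ between panels. Srrm3 and Sf3b1 lie above saline and Glra2 below it in all MPH arrays, and Mbnl3 lies below it in the 3 MPH1 arrays and in MPH10 replicate 2.

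General splicing factors, the proteins that every cell uses to remove introns, showed small differences. Of 28 genes, 24 were measured by 62 probe sets, 0 of which passed by adjusted p in either comparison with or without the replicate block. Of all probe sets, 0% passed with the block, and 0.12% and 0.255% without it. At an unadjusted p of 0.05, 0 were higher and 1 lower in the MPH1 arrays, beside 4.53% higher and 5.77% lower of all probe sets. In the MPH10 arrays 1 was higher and 1 lower, beside 4.08% and 5.51%. The medians over genes were 0.00 and 0.03. The lower probe set in the MPH1 arrays was that of Prpf8, the core protein of the catalytic spliceosome, at -0.29 (standard error 0.11, adjusted p = 0.442 from limma), with -0.17 in the MPH10 arrays (adjusted p = 0.627). Sf3b1, which anchors the U2 particle at the branch point, read 10.14, 10.14 and 10.10 in saline, 10.18, 10.21 and 10.22 in the MPH1 arrays and 10.31, 10.28 and 10.32 in the MPH10 arrays in 1449138_PM_at, differences of 0.08 and 0.18 (standard error 0.07, adjusted p = 0.71 and 0.485 by limma). The groups were apart, but its other probe sets overlapped saline. Sf1, the branch point binder, had -0.01 and -0.21 in the dim probe set 1423751_PM_at (adjusted p = 0.965 and 0.496 from limma), and Srsf10, a serine and arginine rich factor, 0.07 and 0.18 in 1423982_PM_at (adjusted p = 0.784 and 0.528). Both signs were seen for 8 and 9 of the 15 genes with several probe sets, Hnrnpc, Sf3b1, Snrnp70, Srsf1, Srsf2 and Srsf3 in both comparisons, Hnrnpd and Srsf10 only in the first and Sf1, Sf3a1 and Srsf6 only in the second.

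Genes that carry exons known to be regulated by these proteins were read for their overall level, since the deposited values summarize probe sets and hold no exon inclusion. Of 20 such genes, 14 were measured by 28 probe sets, and 0 passed by adjusted p in either comparison with or without the replicate block. Of all probe sets, 0% passed with the block, and 0.12% and 0.255% without it. At an unadjusted p of 0.05, 2 were higher and 1 lower in each comparison, where 10.3% and 9.59% of all probe sets passed in either direction, and the medians over genes were 0.04 and 0.03. Glra2, the glycine receptor subunit whose alternative exon is a classic NOVA target, read 6.83, 7.17 and 7.00 in saline, 6.52, 6.73 and 6.78 in the MPH1 arrays and 6.62, 6.39 and 6.58 in the MPH10 arrays. All MPH arrays lay below saline, and the differences of -0.33 and -0.47 (standard error 0.11) did not pass (adjusted p = 0.433 and 0.422 from limma, and 0.164 and 0.0929 without the replicate block). Ank3, the scaffold of the axon initial segment, had differences of 0.24 and 0.25 in 1425202_PM_a_at (adjusted p = 0.472 and 0.505 from limma) and of 0.23 and 0.12 in 1451628_PM_a_at (adjusted p = 0.467 and 0.682), against 0.02 and 0.03 in its brightest probe set. Nf1, a brake on Ras whose exon is regulated by ELAVL and CELF proteins, was at background in the saline and MPH1 arrays. It was barely above background in the MPH10 arrays (3.61 to 3.67). Its differences were 0.10 and 0.23 (adjusted p = 0.669 and 0.454 from limma). Ank3, Camk2d and Mapt had probe sets of both signs in both comparisons, and Cacna1d and Src only in the MPH10 arrays. Snap25, which also stands in the list of neuron genes, had 0.06 and 0.02.

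The probe sets most like Rbfox1 over the 9 arrays were found by Pearson correlation with 1418314_PM_a_at among 16210 single-gene probe sets at or above the median level (10528 genes, all arrays shared and 3 groups contributing). The highest were Cdk7, a kinase of transcription and the cell cycle (0.985), the gene model Gm15834 (0.98), Ogfrl1 (0.97), Nrip1, a nuclear receptor corepressor (0.968), and the ribosomal protein gene Rps3a1 (0.966). The lowest were Ppp1r26 (-0.976), Arl2bp (-0.975), Armc10 (-0.975), the receptor guanylate cyclase gene Gucy2c (-0.969), and the cytoskeletal gene Add2 (-0.968). The choice of these 10 genes was not stable. With the mean of all Rbfox1 probe sets 0 of them were named again, and 2 were without saline array 1, 2 without MPH1 array 1, 5 without MPH10 array 1 and 6 without MPH10 array 3. Cdk7 read 8.07 to 8.10 in saline, 8.24 to 8.30 in the MPH1 arrays and 8.18 to 8.23 in the MPH10 arrays, and Gucy2c 5.36 to 5.82, 3.99 to 4.51 and 4.54 to 4.70. The differences of these 10 genes from saline lay between -1.40 (Gucy2c) and 0.46 (Ogfrl1) in the MPH1 arrays and between -0.99 and 0.28 (the same 2 genes) in the MPH10 arrays. Among the members, the correlation of the brightest probe set with that of Rbfox1 was 0.58 for Elavl3, 0.31 for Celf4, 0.11 for Rbfox2, -0.08 for Elavl2, -0.09 for Nova1, -0.14 for Elavl4 and -0.57 for Rbfox3. With the group means taken out, the same correlations were 0.62 for Elavl3, -0.74 for Celf4, -0.36 for Rbfox2, -0.46 for Elavl2, 0.93 for Nova1, -0.43 for Elavl4 and -0.58 for Rbfox3, so the sign turned for Celf4, Rbfox2 and Nova1.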

How the data were processed

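Substantia nigra RNA was measured on 9 arrays, 3 each for saline, MPH1 and MPH10 (labelled with the lower and the higher dose). The deposited values are on the log2 scale. The authors obtained them by RMA, which removes background, normalizes quantiles and summarizes probe sets. Their methods also name ComBat on the 3 replicates, without saying whether the deposited values include it. In the deposited values the mean square of the replicate number had a median of 0.073 times the residual mean square, where uncorrected values with no batch would give 0.828. So low a ratio is what values that already hold the correction would give. In that case the p-values without the replicate block are too small.

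After removal of 104 control probe sets, limma 3.58.1 (R 4.3.3) was run on 45037 probe sets of all 9 arrays, with group and, as an additive block, the replicate number. The block was kept since the methods treat the replicates as a batch, although the deviations of arrays with the same number correlated at -0.132 to -0.626. P-values are two-sided and Benjamini-Hochberg adjusted over all probe sets (threshold 0.05). The platform annotation gave 28898 probe sets 1 gene, 551 several and 15588 none, and 28689 were found in the GRCm38.p6 reference table, which changed 0 symbols. Members and lists were chosen with earlier results of these data known. The text names every member, up to 4 probe sets per list with the smallest p against saline, list genes with probe sets of both signs, and the 5 genes at each end of the likeness to Rbfox1. Windows of mouse chromosome 18 were left out of the share of windows. Genes of the lists beyond those counted as measured were not analysed here. Further marker lists had, in saline, MPH1 and MPH10, summed levels of 14.1 to 15.0, 14.3 to 14.8 and 14.5 to 16.1 (glutamate neurons), 52.7 to 56.0, 52.8 to 54.4 and 54.3 to 60.6 (cortex or hippocampus), 8.3 to 13.9, 6.4 to 7.7 and 6.9 to 9.5 (raphe serotonin neurons), 64.8 to 65.5, 63.6 to 65.9 and 62.5 to 64.2 (oligodendrocytes), 45.9 to 47.8, 45.9 to 47.1 and 46.2 to 47.0 (astrocytes), 39.1 to 40.6, 39.3 to 39.8 and 37.6 to 39.0 (microglia) and 31.2 to 31.5, 31.1 to 31.8 and 31.1 to 31.6 (endothelium). The fit was tested on simulated data. Alternatives were no block, only the groups compared, a second quantile normalization, median centring, brighter probe sets only, an intensity trend with the robust option, array weights, and each array left out. The number of arrays limits the precision.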

Additional observations from a re-analysis of the deposited data

Results flagged for a closer look

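For Elavl3 in 1452524_PM_a_at every MPH1 array read above the saline mean of 8.94 and every MPH10 array below it, although both groups overlapped the saline arrays. Neither difference from saline passed limma's test (0.15, adjusted p = 0.577, and -0.06, adjusted p = 0.852). The difference of the MPH groups was -0.21 and did not pass over all probe sets (adjusted p = 0.774, and 0.277 without the replicate block). The other 2 probe sets of Elavl3 had differences of -0.09 and -0.01 between the MPH groups.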

How the results depend on the processing

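No alternative brought a probe set of the other members or of the splicing lists past an adjusted p of 0.05 against saline. Between the MPH groups, no alternative brought a member probe set past it. Rbfox1 against saline was given no test under any setting. Without the replicate block 1 (from 0) of 23 probe sets of the other members passed an unadjusted p of 0.05 in MPH10. For the splicing lists, of 67, 62 and 28 probe sets, the counts were 25 (from 12) in MPH1 and 24 (from 13) in MPH10. Of all probe sets, 18.5% in MPH1 and 17.7% in MPH10 passed without the block, and 10.3% and 9.59% with it. The block changed no call by adjusted p for the other members and the lists. Over all probe sets 54 in MPH1 and 115 in MPH10 were called without it and 0 with it. The published lists hold 54 entries for 10 mg/kg and 115 for 1 mg/kg. Array weights also gave 1 for the other members in MPH10. With brighter probe sets only, 1 member (from 2) differed between the MPH groups and 7 list probe sets in MPH1. With only the groups compared in the fit, 8 list probe sets passed in MPH10. Shares of all probe sets under these other alternatives are not given here, so nothing is read from their counts. Elavl4 1428741_PM_at, near 0, turned to 0.01 in MPH1 with array weights and to 0.01 in MPH10 with a second quantile normalization. Of the 10 genes most and least like Rbfox1, 5 were shared with Spearman correlation, 0 with the mean of all Rbfox1 probe sets and 6 with the replicate block, where each replicate number's mean was taken out. The causes were not tested.

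With each array left out in turn, the counts ranged from 2 to 8 shared genes for the likeness, 1 to 2 for the members between MPH groups, 0 to 2 in MPH1 and 0 to 1 in MPH10 for the other members, and 8 to 15 in MPH1 and 8 to 21 in MPH10 for the lists (21 without saline array 2). The shares of all probe sets with an array left out are not given here, so nothing is read from the counts of passing probe sets. Rbfox1 ranged from 0.36 to 0.89 and 0.16 to 0.69 in 1455358_PM_at and from 0.12 to 0.57 and 0.01 to 0.48 in 1438217_PM_at, lowest without saline array 2, and 1438217_PM_at from -0.30 to 0.10 between the MPH groups. Signs also turned for Celf4 in MPH10 (-0.03 to 0.13), Elavl2 in MPH1 (-0.06 to 0.05) and MPH10 (-0.11 to 0.01), Elavl3 in MPH1 (-0.01 to 0.23) and MPH10 (-0.11 to 0.14), Elavl4 in MPH1 (-0.16 to 0.07) and MPH10 (-0.20 to 0.16), Nova1 in MPH10 (-0.19 to 0.08), Rbfox2 in MPH1 (-0.02 to 0.22) and MPH10 (-0.08 to 0.07), Rbfox3 in MPH10 (-0.06 to 0.07) and Sf1 in MPH1 (-0.06 to 0.06).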
